A study of Mus musculus with 8 samples.

Results

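Retinoic acid (RA) differentiation of mouse embryonic stem cells (ESC) labelled huntingtin-null was examined by RNA-seq, in 1 library of ESC and 1 library of the cells obtained from them (RA-DIFF). Genes were kept when they had 10 or more counts in at least 1 of these 2 libraries, which left 22666 of the 32567 genes in the count table. The ESC line is homozygous for the Hdh ex4/5 allele, a targeted disruption of Htt, the mouse gene for huntingtin, also written Hdh. The series holds in addition 1 wild-type ESC library, 1 RA-DIFF library labelled wild-type, and small RNA libraries of the same 4 conditions, which were not used here. Per the labels, ESC were taken off feeder cells for 4 passages and then grown as embryoid bodies, and by the study's methods these received RA before they were dissociated with trypsin, plated and collected shortly afterwards. Each genotype was 1 line, and RA-DIFF cells were a whole culture without sorting, so that fewer cells of a type and less RNA per cell cannot be told apart. With 1 library a side there is no replicate check, no SD and no test, and intervals cover counting error only.

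As background, RA enters cells from the medium and binds the RA receptors, which sit as dimers with RXR proteins on paired short repeats near their target genes. Among the genes that these receptors switch on in ESC are the receptor gene Rarb, the RA-degrading enzymes of the Cyp26 family and the Hox genes nearest to the 3′ ends of their clusters. Embryoid bodies given RA lose the transcription factors of the pluripotent state and are known for yielding neural progenitors of radial glia character, from which neurons then form, with variable shares of mesenchymal and other cells.

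The 2 libraries held 63617410 counts (ESC) and 100927951 counts (RA-DIFF). Levels are given as CPM, counts relative to the library total, after scaling by TMM, a method that sets libraries to a common scale from the bulk of their genes, and the upper limit of 3 counts that a 0 leaves is 0.0460 CPM in ESC and 0.0305 CPM in RA-DIFF. Htt (ENSMUSG00000029104) itself, the targeted gene, had 111 CPM in ESC labelled Htt-null against 166 CPM in wild-type ESC, but in RA-DIFF 98.7 CPM under the Htt-null label against 73.3 CPM under the wild-type label. The order in RA-DIFF thus went against the labels. In addition, the values per condition that were printed with the study for wild-type RA-DIFF were those of the deposited column labelled Htt-null, and the reverse, while both ESC columns matched their own labels. The printed and the deposited table thus name the 2 RA-DIFF columns in opposite ways, over all genes compared and not by Htt alone. With the 2 names exchanged, Htt would be lower in Htt-null cells in RA-DIFF as it is in ESC. Which table carries the intended names was not tested, and a contrast of ESC Htt-null with the RA-DIFF library labelled Htt-null may therefore mix 2 genotypes. The same ESC library was therefore also set against the RA-DIFF library labelled wild-type, which is called the other RA-DIFF library. RNAs without a poly-A tail also differed between the 2 RA-DIFF libraries: Rn18s-rs5, a ribosomal RNA locus, had 5133 CPM in ESC labelled Htt-null, 352 CPM in RA-DIFF labelled Htt-null and 2912 CPM in the other RA-DIFF library.

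Differentiation was accompanied by differences across most of the transcriptome. Past 2-fold, 6884 genes were higher in RA-DIFF (30.4% of those kept) and 5980 were lower (26.4%), and 9802 genes (43.2%) stayed within 2-fold. Past 8-fold, 2342 genes were higher (10.3%) and 2309 were lower (10.2%). The median log2 ratio over all 22666 genes was 0.097, with the 5th and 95th percentiles at -4.40 and 4.44. In terms of RNA, the genes past 2-fold higher took 7.62% of the counts in ESC and 31.9% in RA-DIFF, and those past 2-fold lower took 26.9% in ESC and 7.45% in RA-DIFF. The 2342 genes past 8-fold higher went from 0.534% to 11.0% of the counts, and the 2309 past 8-fold lower from 5.73% to 0.225%. Of the genes kept, 17819 had 10 or more counts in both libraries, 733 were at 0 in ESC and 502 were at 0 in RA-DIFF. For genes at 0 a ratio was computed with 3 counts in place of 0 and is a bound. At the limit of 10 counts, the 300 genes whose higher library held exactly 10 counts had a median log2 ratio of -0.59, and the 373 genes just outside it, at 9 counts, had -0.76. Against the other RA-DIFF library 6991 of 22983 genes were past 2-fold higher (30.4%) and 6014 lower (26.2%), and past 8-fold 2299 were higher (10%) and 2387 lower (10.4%).

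**Figure D1:**
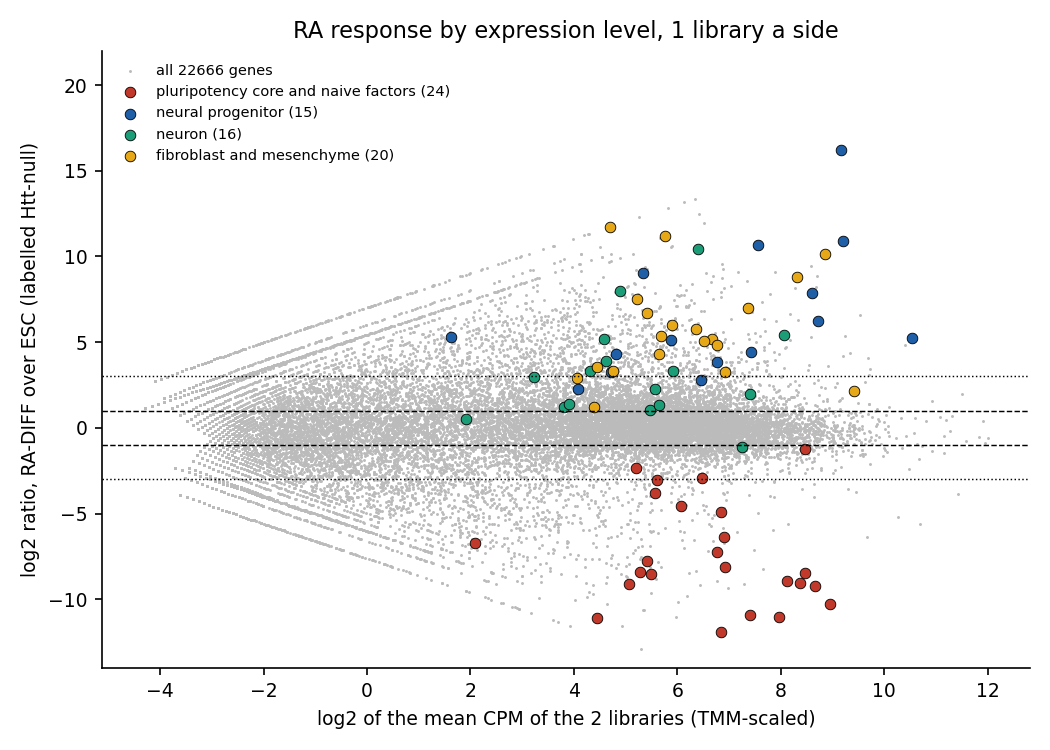
Each grey point is 1 of the 22666 genes, with the log2 of its mean CPM in the 2 libraries on the x axis and its log2 ratio, RA-DIFF over ESC, on the y axis. Dashed lines mark 2-fold and dotted lines 8-fold. The 24 pluripotency factors (red) all lie below the lower dashed line, the 15 neural progenitor genes (blue) and the 20 mesenchyme genes (yellow) all lie above the upper one, and the diagonal rows of grey points at the left are genes with few counts.

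Genes that receive, make or degrade RA were mostly higher in RA-DIFF. Of 24 genes on a list of retinoid response and metabolism, 23 were kept, and of these 16 were past 2-fold higher (69.6%), 10 of them past 8-fold, and 5 were lower (21.7%), with a median log2 ratio of 2.92. These shares, and those of the lists that follow, stand against 30.4% of all genes past 2-fold higher and 26.4% lower. All lists were chosen with earlier results of these data known, so their shares describe the listed genes only and test nothing. Against the other RA-DIFF library 12 of the retinoid genes were higher and 4 lower, with a median of 2.02. Among the receptors, Rarb, itself a target of RA signalling, had 0.583 CPM in ESC and 38.6 CPM in RA-DIFF, 66.3-fold higher, and 6.83 CPM in the other RA-DIFF library. The 2 other receptor genes went the other way: Rarg, the receptor gamma of the family, went from 97.9 to 16.3 CPM (6.01-fold lower), and Rara from 60.1 to 26 CPM (2.31-fold lower). Of the enzymes that break RA down, Cyp26b1 had 11 counts in ESC and 1242 in RA-DIFF (74.8-fold), and Cyp26a1, the classic early RA target, had 10 and 114 counts (7.55-fold). Both enzymes were near the limit of 10 counts in ESC, and both were also past 2-fold higher with the other RA-DIFF library (log2 9.87 and 2.63).

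The promoters of Rarb and Cyp26a1 are shown because each holds a direct repeat with a gap of 5 bases (DR5), the spacing that RA receptor dimers are best known to bind. The 250 bases before each start are from RefSeq on GRCm38.p6, for Rarb at chr14:16575477-16575726 on the minus strand and for Cyp26a1 at chr19:37697558-37697807 on the plus strand, written 5′ to 3′ along the gene with the repeat in capitals.
Rarb: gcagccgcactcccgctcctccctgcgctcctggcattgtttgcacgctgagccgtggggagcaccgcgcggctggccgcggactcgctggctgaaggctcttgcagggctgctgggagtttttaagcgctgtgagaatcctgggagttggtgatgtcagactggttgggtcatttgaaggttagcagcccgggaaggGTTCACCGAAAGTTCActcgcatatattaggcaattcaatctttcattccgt
Cyp26a1: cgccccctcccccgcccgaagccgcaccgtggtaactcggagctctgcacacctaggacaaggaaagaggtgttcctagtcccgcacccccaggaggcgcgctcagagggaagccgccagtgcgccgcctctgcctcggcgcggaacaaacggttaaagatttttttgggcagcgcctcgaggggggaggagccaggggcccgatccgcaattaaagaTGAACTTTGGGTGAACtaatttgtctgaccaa
The repeat lies 52 to 37 bases before the start in Rarb and 32 to 17 bases before it in Cyp26a1, where it reads along the opposite strand. The letters searched, on both strands, were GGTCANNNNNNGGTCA, GGTCANNNNNNGTTCA, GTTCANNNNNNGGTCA and GTTCANNNNNNGTTCA. They were rare: 62 of all 27025 promoters in the RefSeq table (0.229%) held one in the 250 bases before to 50 bases after the start, as did 17 of the 13586 promoters matched to genes kept (0.125%), 4 of the 1411 promoters of genes past 8-fold higher (0.283%), 1 of the 1195 of genes past 8-fold lower (0.0837%) and 6 of the 6423 of genes within 2-fold (0.0934%). Of the 17 genes kept that held one, 8 were past 2-fold higher and 3 were lower, against 30.4% and 26.4% of all genes kept. Rarb had the highest log2 ratio of the 17 (6.05), and Cyp26a1 was among the 8 (2.92). A match describes the letters only.

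Most genes for proteins that carry and make RA were higher, like Rarb, but Rbp4, the carrier of retinol in serum, was lower (log2 -1.5) and Crabp1, a cytoplasmic RA carrier, stayed within 2-fold (0.59). Aldh1a1, Aldh1a2 and Aldh1a3, the dehydrogenases that make RA, had log2 ratios of 3.15, 1.49 and 2.67, but all stayed within 2-fold with the other RA-DIFF library (0.87, 0.78 and 0.19). Crabp2, which binds RA in the cytoplasm, went from 3.0 to 20.7 CPM. Stra6, the retinol uptake receptor, was 21.9-fold higher, from 1.21 to 26.5 CPM. Dhrs3, which turns retinaldehyde back into retinol and is itself induced by RA, was 9.41-fold higher (2.02 to 19 CPM), against a log2 ratio of 0.87 with the other RA-DIFF library. Rdh10, the dehydrogenase of the opposite step, went from 4.84 to 40.2 CPM. The nuclear receptors Nr2f1 and Nr2f2, factors of neural and mesodermal patterning that RA induces, had 13 and 27 counts in ESC and 6989 and 12939 in RA-DIFF, with log2 ratios of 8.48 and 8.31 (9.22 and 7.89 with the other RA-DIFF library). Stra8, an RA target known from germ cells entering meiosis, was present in ESC at 19.3 CPM and was 14.6-fold lower in RA-DIFF at 1.32 CPM. Cdx1, a caudal homeobox gene, had 44 and 7 counts, a log2 ratio of -3.25, but 0.0268 against the other RA-DIFF library.

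The pluripotency programme was high in ESC, as its label says, and low in RA-DIFF. All 24 listed core and naive pluripotency factors were kept, all 24 were past 2-fold lower and 21 were past 8-fold lower, with a median log2 ratio of -8.27, against 26.4% of all genes past 2-fold lower. With the other RA-DIFF library all 24 were again past 2-fold lower, but the median was -5.78. Pou5f1 (Oct4), the POU factor that ESC cannot do without, went from 657 CPM to 1.25 CPM (526-fold lower), and stood at 11.8 CPM in the other RA-DIFF library. Nanog, the homeobox factor that holds ESC in self-renewal, went from 707 to 1.96 CPM, with 9.0 CPM in the other library. Esrrb, an orphan nuclear receptor of the naive state, went from 552 to 1.15 CPM, with 7.36 CPM. In each case the RA-DIFF library labelled Htt-null was the lower of the pair.

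Zfp42 (Rex1), a zinc finger gene used as a marker of naive ESC, went from 986 CPM to 0.802 CPM, 1229-fold lower, with 9.58 CPM in the other RA-DIFF library. Its promoter is shown because it holds the octamer ATGCAAAT, the letters that Oct4 and other POU factors are known to bind, here read on the opposite strand and in capitals, 186 to 179 bases before the start (RefSeq, GRCm38.p6, chr8:43307010-43307259, minus strand).
Zfp42: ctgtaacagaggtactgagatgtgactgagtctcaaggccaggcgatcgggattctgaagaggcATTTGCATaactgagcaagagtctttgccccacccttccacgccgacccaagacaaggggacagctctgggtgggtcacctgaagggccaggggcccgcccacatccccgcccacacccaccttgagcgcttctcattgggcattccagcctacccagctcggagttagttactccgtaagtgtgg
The octamer, searched on both strands, was found in 470 of all 27025 promoters (1.74%), in 1.44% of the 13586 matched to genes kept, in 32 of the 1195 promoters of genes past 8-fold lower (2.68%), in 25 of the 1411 of genes past 8-fold higher (1.77%) and in 76 of the 6423 within 2-fold (1.18%).

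Signal and cofactor genes of the ESC state were lower still. Fgf4, the growth factor by which ESC prime themselves for differentiation, had 15029 counts in ESC and 6 in RA-DIFF (3781-fold lower), and Tdgf1 (Cripto), the Nodal co-receptor, had 32411 and 23 (2127-fold lower). Utf1, a chromatin-associated factor of undifferentiated cells, had 22196 and 17 counts. Prdm14, which keeps DNA methylation low in naive cells, had 2838 counts in ESC and 2 in RA-DIFF, a log2 ratio of -11.06 with a 95% counting interval from -14.11 to -9.21. The smallest differences of the list were those of factors also used by later progenitors: Sox2, shared by ESC and neural progenitors, went from 495 to 212 CPM (2.33-fold lower), Klf5 was 4.98-fold lower and Trim71, a target of let-7 miRNAs, 7.6-fold lower. Tbx3, a T-box factor, was higher in this RA-DIFF library than in the other, at 10.6 against 2.56 CPM, and so were Klf4 (6.44 against 5.13) and Klf5 (12.2 against 12).

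**Figure D2:**
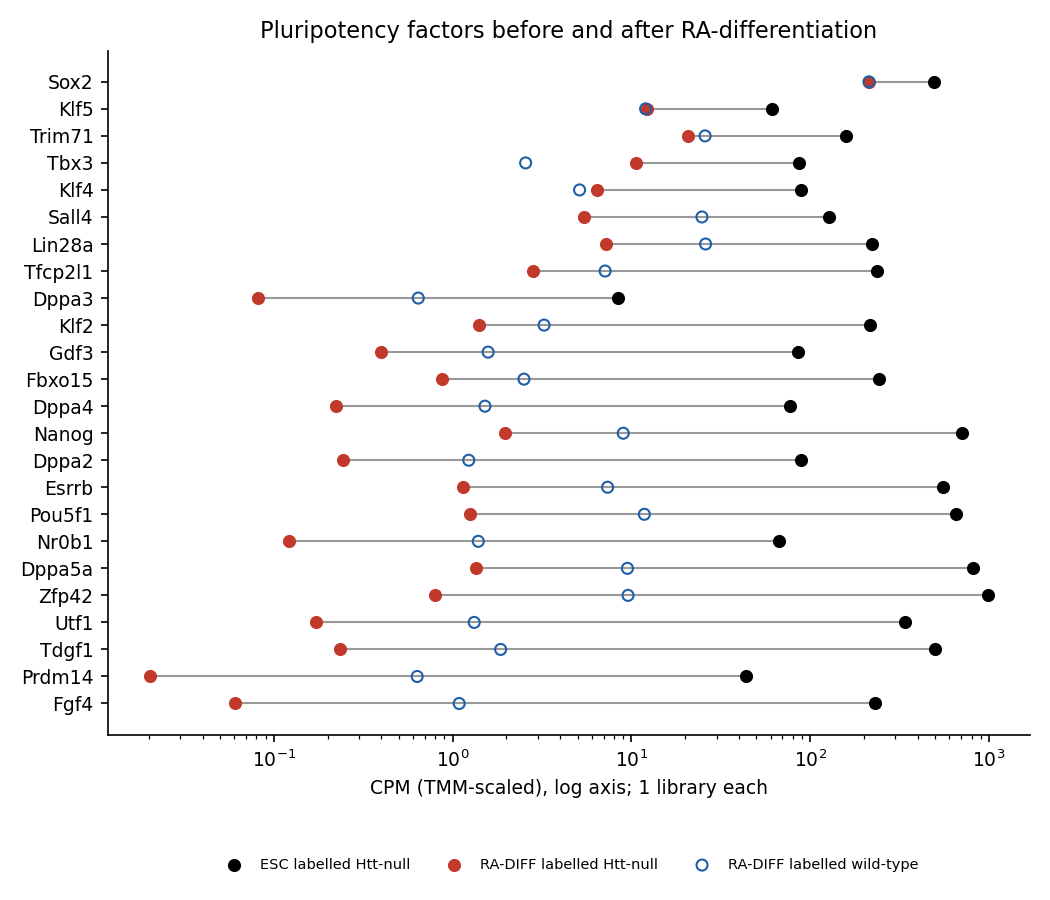
CPM on a log axis for the 24 pluripotency factors in the ESC library (black), the RA-DIFF library labelled Htt-null (red) and the RA-DIFF library labelled wild-type (open blue), 1 library each, sorted by the ratio of red to black. All 24 are lower in both RA-DIFF libraries than in ESC, and for most genes the red point lies to the left of the blue one.

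Genes of a small fraction of ESC that resemble the 2-cell embryo, and germline genes, were low as well: all 14 listed were past 2-fold lower, 13 past 8-fold, with a median log2 ratio of -5.62. Zscan4f, a marker of that ESC state, went from 989 to 9 counts, and Dazl, an RNA-binding protein of germ cells, from 5073 to 41. The Zscan4 genes are close copies of each other, so the split of reads between them is uncertain. Genes of the formative epiblast, the stage between ESC and lineage commitment, went either way: 4 of 10 were past 2-fold higher (40%, against 30.4% of all genes) and 5 lower (50%, against 26.4%), with a median of -0.56. With the other RA-DIFF library 5 were higher and 2 lower, and the median was 0.54. Foxd3, a forkhead repressor, was 158-fold lower (22.5 to 0.142 CPM), whereas Sall2, a zinc finger gene of neural tissue, was 14.4-fold higher (18.7 to 269 CPM). Pou3f1, a POU factor of the primed state, had a log2 ratio of -1.64 here and 1.38 with the other RA-DIFF library.

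Neural progenitor genes showed the opposite picture. All 15 listed genes were kept, all 15 were past 2-fold higher, 13 of them past 8-fold, with a median log2 ratio of 5.22, against 30.4% of all genes past 2-fold higher, and the other RA-DIFF library gave the same count and a median of 5.25. Fabp7, the brain fatty acid binding protein of radial glia, had 1 count in ESC and 113019 in RA-DIFF, or 1148 CPM, the largest log2 ratio among genes with at least 500 counts (16.19, counting interval 13.71 to 21.5). Vim, the intermediate filament vimentin of progenitors and mesenchyme, went from 77.9 to 2906 CPM, and Nes, nestin, from 11.2 to 833 CPM (74.3-fold). Ptn, the growth factor pleiotrophin, went from 41 to 116385 counts. Sox9, which marks progenitors that can form glia, had 10 and 7930 counts, and Zic1, a zinc finger factor of the dorsal neural tube, 15 and 36856. Of the transcription factors of the early neural plate, Sox1 was 6.93-fold and Pax6 9.67-fold higher. Vim was 1 of the 10 genes with the largest gain of CPM, which were led by Scd2, a stearoyl-CoA desaturase (1167 to 4608 CPM), and also held Actb, beta-actin (974 to 2896), and Ckb, brain creatine kinase (141 to 1553).

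The label of RA-DIFF, differentiated cells, names no cell type, and beside the progenitor genes those of neurons were also higher, by smaller factors. Of 16 neuron genes 14 were past 2-fold higher (87.5%, against 30.4% of all genes) and 7 past 8-fold, with a median log2 ratio of 2.62, and the other RA-DIFF library gave 15 and a median of 3.81. Dcx, doublecortin of migrating young neurons, had 8 counts in ESC and 16488 in RA-DIFF. Map2, a dendritic microtubule protein, went from 12.4 to 522 CPM. Tubb3, the neuronal beta-tubulin, went from 67.8 to 271 CPM (4.01-fold) and stood at 875 CPM in the other RA-DIFF library. Stmn2, a tubulin-binding protein of growing axons, was already at 209 CPM in ESC and was at 94.9 CPM in RA-DIFF, and Rbfox3 (NeuN), a marker of mature neurons, had a log2 ratio of 0.54 (3.07 to 4.45 CPM). Summed over the list, neuron genes had 404 CPM in ESC, 1623 CPM in RA-DIFF labelled Htt-null and 3610 CPM in the other RA-DIFF library.

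Genes of Notch signalling and the proneural factors, which together set when progenitors turn into neurons, were 11 of 15 past 2-fold higher (73.3%, against 30.4% of all genes) and 2 lower (13.3%, against 26.4%), with a median of 2.49. Hes5, a Notch effector that holds progenitors back, went from 0.153 to 6.03 CPM. The Notch ligand Dll1 went from 8.34 to 82.3 CPM. The neurogenins were lower in this library than in the other: Neurog2 had 1 count in ESC, 3.01 CPM in RA-DIFF labelled Htt-null and 38.2 CPM in the other RA-DIFF library, and Neurog1 had 17 counts, 1.46 CPM and 7.95 CPM. Neurod1, a factor of differentiating neurons, had 805 counts in ESC and 287 in RA-DIFF (log2 -2.08, other library -0.11). Of 11 neurotransmitter genes 6 were past 2-fold higher (54.5%) and 2 lower (18.2%). Gad1 and Gad2, the enzymes that make GABA, went from 134 to 2747 and from 41 to 1815 counts, and Slc17a6, the vesicular glutamate transporter VGLUT2, was at 0 in ESC and at 474 counts in RA-DIFF, at least 105-fold higher, which is 4.81 CPM against 33.2 CPM in the other RA-DIFF library. Axon guidance genes, which progenitors also express, were 16 of 18 past 2-fold higher, 12 past 8-fold, and none was lower, with a median of 5.34 (3.94 with the other RA-DIFF library). Slit2 went from 7.91 to 405 CPM, the netrin gene Ntn1 from 15.8 to 562 CPM and the semaphorin receptor Nrp1 from 1.03 to 159 CPM.

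Regional factors of hindbrain, spinal cord, forebrain and midbrain were found together in RA-DIFF. Progenitor factors of hindbrain and spinal cord were 14 of 20 past 2-fold higher (70%, against 30.4% of all genes) and 2 lower, with a median log2 ratio of 3.07. The ventral ones were high: Shh, the signal of the floor plate, had 3 counts in ESC and 9960 in RA-DIFF (log2 11.1, counting interval 9.56 to 13.38), Foxa2, a floor plate factor, had 20 and 1208, and Nkx2-2, which marks the progenitors next to it, 7 and 1652. Olig2, the factor of motor neuron and oligodendrocyte progenitors, was at 0 in ESC and at 10451 counts in RA-DIFF (106 CPM), at least 2308-fold higher. These ventral genes were lower in the other RA-DIFF library, with 11.8 CPM of Shh against 101, 1.88 of Foxa2 against 12.3, 2.64 of Nkx2-2 against 16.8 and 35.5 of Olig2 against 106. Some dorsal and intermediate factors were lower in the library labelled Htt-null than in the other: Pax3, a dorsal factor, had 8.75 against 56.3 CPM, Pax7 0.965 against 6.47, Dbx1, of the middle of the neural tube, 12.5 against 125, and Irx3, a homeobox factor of the same region, 3.28 against 28.5. These 4 ventral factors were thus higher and these 4 dorsal and intermediate factors lower in this RA-DIFF library than in the other. The genes were picked from the 20 on the list for this contrast after their values were seen, and no test of it was possible. Other genes of the list are not given here. Dbx2 went the other way from Dbx1, with a log2 ratio of -1.83 here and -2.93 with the other RA-DIFF library.

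Forebrain and midbrain factors were 11 of 15 past 2-fold higher, 10 past 8-fold, and 3 lower, with a median of 4.19. Six3, a factor of the anterior neural plate, had 8 and 4309 counts, Dlx1, of ventral forebrain, 12 and 3631, and Nkx2-1, of hypothalamus and ventral telencephalon, 8 and 736. En2, of the midbrain and hindbrain border, went from 4.84 to 67.7 CPM. Factors of postmitotic hindbrain and spinal neurons were 13 of 20 past 2-fold higher and 5 lower, with a median of 2.06, and the other RA-DIFF library gave 16 higher, 2 lower and a median of 3.12. Lhx1 and Lhx5, LIM factors of interneurons, had 15 and 12 counts in ESC and 950 and 1041 in RA-DIFF. Of the factors of motor neurons, Isl1 was 9.07-fold higher at 12.4 CPM, but Mnx1 (Hb9) was 6.18-fold lower (90 to 22 counts) and Chat, the enzyme that makes acetylcholine, was below the limit with 8 and 2 counts.

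Hox genes set position along the trunk and open in RA in the order of their place in the cluster. Of 39 Hox genes 33 were kept, 23 of these past 2-fold higher, 17 past 8-fold and 6 lower, with a median log2 ratio of 3.03 and 3.19 with the other RA-DIFF library. In paralogous groups 1 to 9, 26 of 27 genes were kept, 22 of them past 2-fold higher and 0 lower. In groups 10 to 13, the 5′ end of the clusters, 7 of 12 genes were kept, 1 past 2-fold higher and 6 lower. A gene kept only through its counts in 1 library is bound toward that library, as Hoxc11 and Hoxc12 were with 12 and 11 counts in ESC and 0 in RA-DIFF. The 5 genes of these groups that were not kept had at most 9 counts in either library. The Hoxb cluster was highest, with 9 of 9 genes kept past 2-fold higher and a median of 5.71. Hoxb2 had 1 count in ESC and 129 in RA-DIFF (log2 6.42, counting interval 3.91 to 11.73), Hoxb4 17 and 390, and Hoxb8 3 and 388. Levels stayed low in all of them, since all 39 genes together had 13.6 CPM in ESC and 49.4 CPM in RA-DIFF. At the 5′ end Hoxc13 had 147 counts in ESC and 0 in RA-DIFF, at least 74-fold lower, and Hoxd13 had 127 and 3 (log2 -6.0, counting interval -8.29 to -4.42). Hoxd8 and Hoxd9 were past 2-fold higher here (log2 1.31 and 1.05), but past 2-fold lower with the other RA-DIFF library (-1.16 and -2.2).

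Mesenchyme genes formed the other large group of genes that were higher in RA-DIFF. All 20 listed genes of fibroblasts and mesenchyme were past 2-fold higher and 17 past 8-fold, with a median log2 ratio of 5.26, and with the other RA-DIFF library 18 of 20 were higher with a median of 3.28. Col3a1, a fibrillar collagen, had 53 counts in ESC and 90749 in RA-DIFF (1134-fold), that is 922 CPM, against 364 CPM in the other RA-DIFF library. Acta2, smooth muscle actin, went from 1.41 to 635 CPM (450.4-fold), against 41 CPM in the other library. Dcn, the matrix proteoglycan decorin, was at 0 in ESC and at 10729 counts in RA-DIFF, at least 2369-fold higher. Lum, lumican, had 1 count and 5077, Postn, periostin, 27 and 7327, and the limb and head mesenchyme factor Prrx1 52 and 8307. Sparc, a secreted matrix protein, was already at 252 CPM in ESC and was at 1118 CPM in RA-DIFF. The list summed to 337 CPM in ESC, 4749 CPM in RA-DIFF labelled Htt-null and 1425 CPM in the other RA-DIFF library, and all 20 genes had the larger ratio under the Htt-null label. Mesenchymal RNA thus differed between the 2 RA-DIFF libraries together with the neuron and pluripotency lists, and its part in their values was not tested.

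Genes of other lineages did not move as a block, and their counts are to be read against the 30.4% of all genes past 2-fold higher and the 26.4% lower. Those of the primitive streak and paraxial mesoderm were 7 of 13 past 2-fold higher and 6 lower, with a median of 1.82, but the other RA-DIFF library gave 5 higher, 4 lower and a median of -0.044. T (brachyury), of streak and notochord, had 19 counts in ESC and 1172 in RA-DIFF (40.9-fold), against a log2 ratio of 1.06 with the other RA-DIFF library. Foxc1, a forkhead factor of mesoderm and neural crest, had 14 and 3619, and Mixl1, of the streak, 72 and 1. Heart and skeletal muscle genes were 2 of 11 higher and 7 lower, and the defining factors Myf5 and Myod1 had 1 and 15 counts in RA-DIFF. Endothelial genes were 3 of 10 higher, all 3 past 8-fold, and 5 lower. Kdr, the VEGF receptor, was 41.4-fold higher at 71.7 CPM. Emcn had a log2 ratio of at least 7.9, and at least 4.42 with the other RA-DIFF library. Cdh5, the defining cadherin of the endothelium, had a log2 ratio of 3.94 (2.41 with the other RA-DIFF library) but reached only 2.11 CPM. Pecam1, which ESC also express, went from 212 to 1.3 CPM. Endoderm genes were 5 of 12 higher and 3 lower, with a median of 0.63, and 4 higher and 5 lower with the other RA-DIFF library (median -0.55): Foxa1 went from 2.81 to 60.8 CPM, but Afp and Apoa4, which mark visceral endoderm, had 6 and 0 counts. Of 7 blood genes 2 were higher and 3 lower, the blood cell marker Ptprc had 4 counts, and of 6 epidermal genes 2 were higher and 2 lower.

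Among glial genes, those of astrocytes, many of which radial glia share, were 8 of 8 past 2-fold higher (against 30.4% of all genes) and 6 past 8-fold, with a median of 4.34. Slc1a3, the glutamate transporter GLAST, went from 11.9 to 537 CPM and Slc1a2, the transporter GLT-1, from 3 to 5140 counts, whereas Gfap and Aqp4 of mature astrocytes reached 9.02 and 7.13 CPM. Oligodendrocyte genes were 2 of 8 higher (25%) and 1 lower (12.5%, against 26.4% of all genes), shares no larger than those of all genes, with a median of -0.057, and the myelin gene Mag had 10 and 10 counts. Of 8 neural crest genes 4 were higher and 1 lower: Ednrb, the endothelin receptor, which radial glia also express, had 35 and 19599 counts, and Sox10, which defines migrating crest, 48 and 62.

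**Figure D3:**
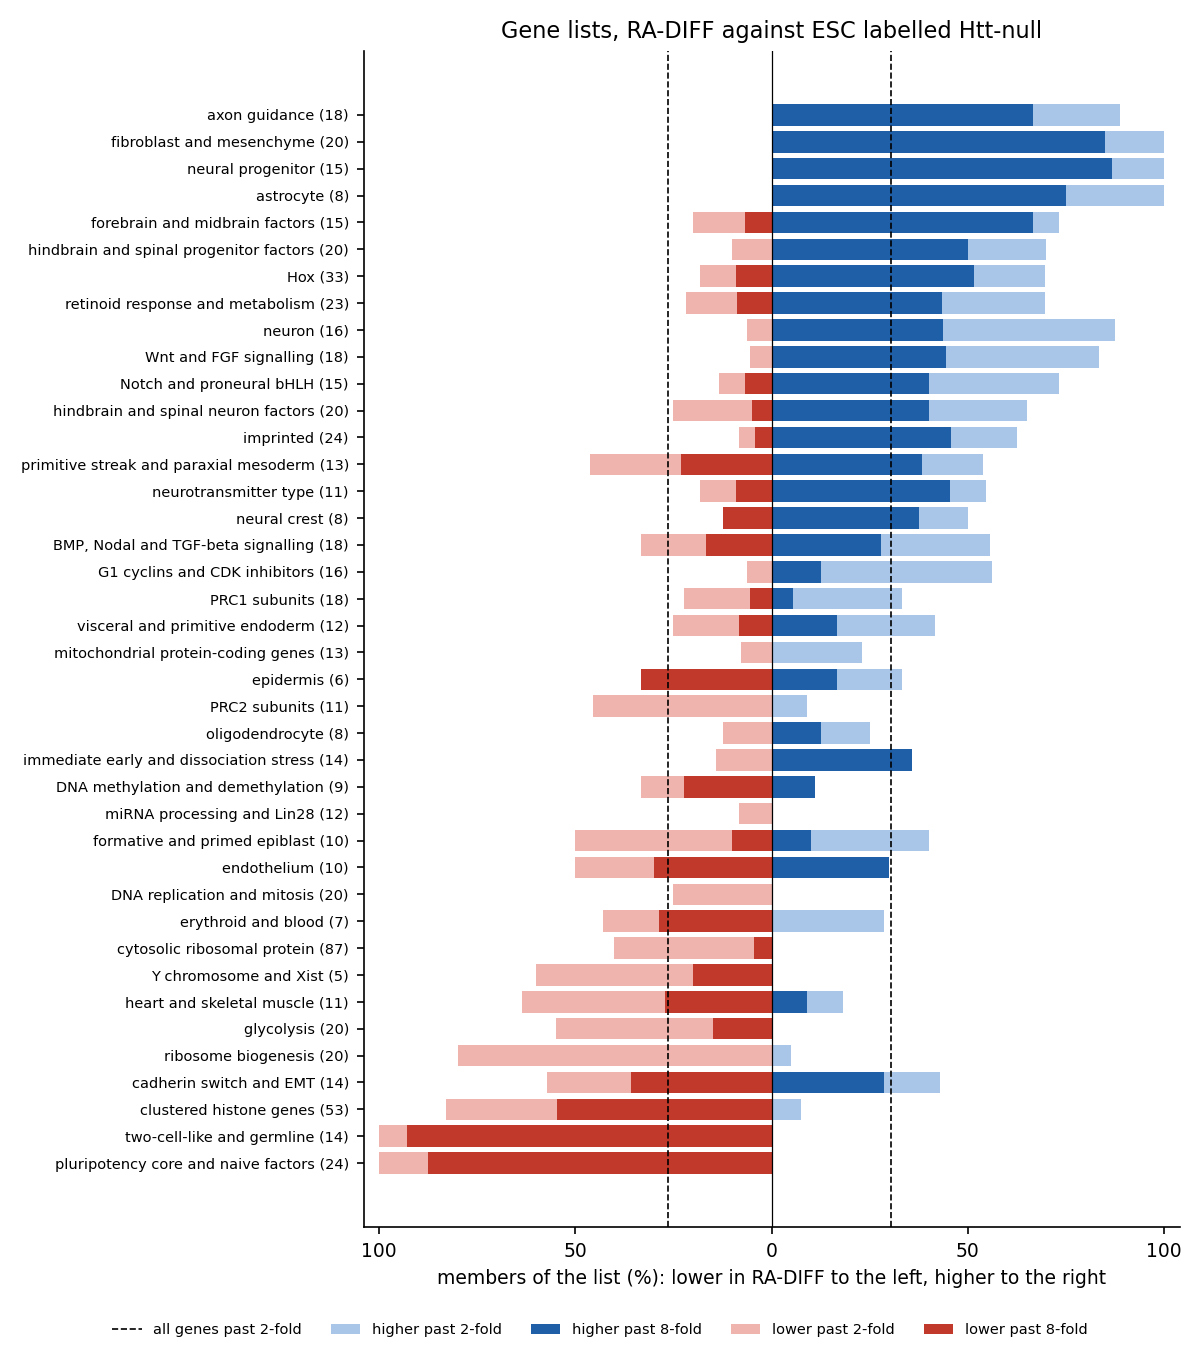
Share of each list's genes past 2-fold (light) and 8-fold (dark) higher in RA-DIFF (blue, to the right) or lower (red, to the left), sorted by median log2 ratio, with the number of genes kept in brackets. Dashed lines mark the 30.4% and 26.4% of all 22666 genes past 2-fold higher and lower. Axon guidance, mesenchyme, neural progenitor and astrocyte genes stand at the top, and pluripotency, 2-cell and germline, and histone genes at the bottom.

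Cell adhesion genes showed an exchange of cadherins. Cdh1 (E-cadherin), which holds ESC colonies together, went from 363 to 11.4 CPM (31.9-fold lower), and Cdh2 (N-cadherin), of neural and mesenchymal cells, from 3.3 to 771 CPM (234-fold higher). The epithelial genes Epcam and Cldn4 were 49.6-fold and 138-fold lower. The mesenchymal cadherin Cdh11 had 35 counts in ESC and 22950 in RA-DIFF, and Zeb2, a repressor of E-cadherin, 68 and 14037. On the list of 14 genes of this switch, 6 were past 2-fold higher (42.9%, against 30.4% of all genes) and 8 lower (57.1%, against 26.4%). Fn1, fibronectin, is usually counted on the mesenchymal side but was lower in RA-DIFF, at 372 CPM against 1173.

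Signalling genes differed by pathway. Wnt and FGF genes were 15 of 18 past 2-fold higher (83.3%, against 30.4% of all genes) and 1 lower, with a median of 2.58. The ligands Wnt5a and Wnt7b went from 123 to 14852 and from 219 to 15561 counts. Axin2, a direct target of Wnt signalling, was 5.85-fold higher (13.1 to 76.3 CPM), and the receptor Fgfr1 went from 129.7 to 454 CPM. Of the genes that FGF signalling induces, Dusp6 was 11.8-fold higher, at 344 CPM against 93.2 CPM in the other RA-DIFF library, and Spry2 3.98-fold higher. In the BMP, Nodal and TGF-beta list 10 of 18 were higher (55.6%) and 6 lower (33.3%, near the 26.4% of all genes), with a median of 1.3, but the other RA-DIFF library gave 5 higher and 9 lower. Among the lower genes, Nodal went from 103 to 0.376 CPM (274-fold lower), and its feedback inhibitors Lefty1 and Lefty2 were 95.1-fold and 357-fold lower. Among the higher genes were Id3, a BMP target (4.98 to 196 CPM), Id2 (9.9 to 155 CPM) and the ligand Tgfb2 (44 to 7768 counts). Bmp4, Inhba and Tgfbi were past 2-fold higher with this RA-DIFF library and past 2-fold lower with the other one.

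Among chromatin genes, single subunits of the polycomb complexes went in either direction. In PRC2, which methylates histone H3 at lysine 27, 1 of 11 genes was past 2-fold higher (9.09%, against 30.4% of all genes) and 5 lower (45.5%, against 26.4%). The catalytic subunit Ezh2 stayed within 2-fold (206 to 249 CPM), its homolog Ezh1 was 5.25-fold lower, and the accessory subunits Jarid2 and Mtf2, abundant in ESC, went from 649.8 to 130.3 CPM and from 491 to 80.2 CPM. The core subunits Suz12 and Eed were 2.75-fold and 2.36-fold lower. The only subunit past 2-fold higher was Phf19 (log2 1.9), which stayed within 2-fold with the other RA-DIFF library (-0.0422). In PRC1, which ubiquitinates histone H2A, 6 of 18 were higher (33.3%) and 4 lower (22.2%), close to the 30.4% and 26.4% of all genes. Of the chromodomain subunits Cbx7, that of ESC, went from 224 to 15.6 CPM (14.3-fold lower), whereas Cbx8 was 6.7-fold higher, at 11.2 CPM. Of the polyhomeotic subunits, Phc1 was lower and Phc2 higher, with Phc1 at 737 CPM in ESC and 137 in RA-DIFF, and Phc2 at 26.5 and 385. Bmi1 (Pcgf4) was 4.71-fold higher and the ligase Rnf2 (Ring1B) stayed within 2-fold.

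In the DNA methylation machinery 1 of 9 genes was past 2-fold higher and 3 lower (33.3%, against 26.4% of all genes). The maintenance genes Dnmt1 and Uhrf1 had log2 ratios of -0.0299 and -0.10. Dnmt3l, the cofactor of de novo methylation in germ cells and ESC, went from 252 to 0.386 CPM (653-fold lower), and Dnmt3b was 7.8-fold lower, while Dnmt3a stayed within 2-fold (log2 0.0232). Of the demethylating enzymes, Tet1 went from 629 to 53.8 CPM and Tet3 from 16.1 to 173 CPM.

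Imprinted genes, which are read from 1 parental copy and are tied to fetal growth, were 15 of 24 past 2-fold higher (62.5%, against 30.4% of all genes), 11 past 8-fold, and 2 lower, with a median of 1.84. Mest went from 90.4 to 2595 CPM (28.7-fold) and was among the 10 genes with the largest gain of CPM, as was Peg10 (91.2 to 1554 CPM). The linked genes H19, a long non-coding RNA, and Igf2, a growth factor, went from 368 to 56339 and from 131 to 43494 counts. Nnat, neuronatin, had 177 and 80192 counts, and Plagl1, a zinc finger factor, 541 and 62791. The other RA-DIFF library held less of some of these: Mest was at 235 CPM there against 2595, and H19 at 33.7 CPM against 572. The 2 lower genes were Phlda2, a growth-restraining gene of the placenta, with 2772 counts in ESC and 34 in RA-DIFF (123-fold lower), and Snrpn, a splicing protein gene (log2 -1.64).

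Growth genes were lower, mostly by smaller factors. Of 20 ribosome biogenesis genes 16 were past 2-fold lower (80%, against 26.4% of all genes) and 1 higher, with a median log2 ratio of -1.34 and none past 8-fold. Ncl, nucleolin, and Npm1, nucleophosmin, were among the 10 genes with the largest loss of CPM, from 3316 to 1223 and from 2518 to 729 CPM. The 1 higher gene was Myc, a driver of the others, which was 4.88-fold higher, whereas its relative Mycn was 3.94-fold lower. Cytosolic ribosomal protein genes were 35 of 87 past 2-fold lower, 4 of them past 8-fold, and 0 higher. Their median log2 ratio was -0.91, the lowest was -9.08, and they summed to 36422 CPM in ESC and 19899 CPM in RA-DIFF. Glycolysis genes were 11 of 20 past 2-fold lower, 3 of them past 8-fold, and 0 higher, with a median of -1.18. The glucose transporter Slc2a3 went from 1302 to 95.5 CPM (13.6-fold lower), the lactate exporter Slc16a3 was 31-fold lower, and Gapdh stayed within 2-fold (log2 -0.36). With the other RA-DIFF library 16 ribosome biogenesis genes, 22 ribosomal protein genes and 7 glycolysis genes were lower, against 26.2% of all genes.

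Most replication and mitosis genes stayed within 2-fold: 15 of 20 did, 0 were past 2-fold higher and 5 were lower (25%, near the 26.4% of all genes), with a median of -0.70 and a sum of 8300 CPM in ESC and 5375 CPM in RA-DIFF. With the other RA-DIFF library 2 were lower. Top2a, a topoisomerase of dividing cells, went from 1920.3 to 948 CPM and Mcm5, a subunit of the replicative helicase, from 729 to 283 CPM, while Mki67, a marker of cycling cells, had the highest ratio of the list (520.0 to 787 CPM, log2 0.60). Control of the G1 phase differed more. Of 16 G1 cyclin, kinase and inhibitor genes 9 were past 2-fold higher (56.2%, against 30.4% of all genes) and 1 lower, with a median of 1.15. Ccnd2, cyclin D2 of neural progenitors, went from 15.2 to 1467 CPM (96.8-fold) and was among the 10 largest gains of CPM, Ccne1, cyclin E1, which is high in ESC, was 2.51-fold lower, and the inhibitor Cdkn2c was 12-fold higher (3.13 to 37.4 CPM). miRNA processing genes were 0 of 12 past 2-fold higher and 1 lower, which was Lin28b, a block on let-7 maturation (log2 -1.54, other RA-DIFF library -0.0218).

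Immediate early genes, which stimuli and cell dissociation switch on within minutes, were 5 of 14 past 2-fold higher (35.7%, near the 30.4% of all genes), with a list median of -0.067, and all 5 were past 8-fold: Fos went from 111 to 3475 counts, Fosb from 9 to 254, Jun from 258 to 6344, Egr1 from 652 to 15248 and Egr3 from 1 to 210. The 2 genes past 2-fold lower were Nr4a1, an orphan nuclear receptor (log2 -1.37), and the heat shock gene Hspa1b (-2.49), and with the other RA-DIFF library 6 were lower. RA-DIFF cells had been dissociated and plated before collection, and the part of this step was not tested.

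Histone genes of the clusters, whose mRNAs end in a stem loop and carry no poly-A tail, were 44 of 53 past 2-fold lower (83.0%, against 26.4% of all genes), 29 past 8-fold, and 4 higher, with a median of -3.26 and of -1.92 with the other RA-DIFF library. All 65 histone genes in the table summed to 68.5 CPM in ESC and 49.2 CPM in RA-DIFF. Other RNAs without a poly-A tail, named after their values were seen, were lower too, and Rn18s-rs5 was 14.6-fold lower. The small RNAs Rmrp, Rpph1 and Rn7sk, parts of RNA-processing and transcription complexes, had 153, 163 and 152 counts in ESC and 1, 19 and 36 in RA-DIFF labelled Htt-null. After scaling, their log2 ratios were -7.85, -3.69 and -2.67, and -0.58, 0.44 and 1.62 with the other RA-DIFF library. Terc had 147 counts in ESC and 0 in RA-DIFF labelled Htt-null, at least 74-fold lower. With the other RA-DIFF library its log2 ratio was -5.98. The part of poly-A selection in the histone values was not tested. Mitochondrially encoded protein genes were 3 of 13 past 2-fold higher (23.1%) and 1 lower (7.69%), both below the shares of all genes, and summed to 16316 CPM in ESC and 16483 CPM in RA-DIFF.

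Ranked over all genes with at least 500 counts, the largest ratios after Fabp7 belonged to Megf10, an engulfment receptor of astrocytes, and Pcdh18, a protocadherin, with 1 count and 1 count in ESC and 15896 and 13734 in RA-DIFF. Itgb8, an integrin of radial glia, had 2 and 16911 counts, and Zic4, a neighbour of Zic1 in the genome, was at 0 in ESC and at 18037 in RA-DIFF, at least 3983-fold higher. The 12 smallest ratios belonged to Fgf4, Prdm14, Tdgf1 and Utf1, to 2 gene models known only by number, and to Lrrc31 (1985 to 1 counts), Ano9 (3952 to 2), Ubash3a (1687 to 1), Nlrp4f (1574 to 1), Tcl1, a co-activator of the kinase Akt (8198 to 6), and Triml1 (5332 to 5). The largest losses of CPM among protein-coding genes were those of the chaperones Hsp90ab1 (5119 to 2816 CPM) and Hsp90aa1 (2392 to 457 CPM), of Ncl and Npm1, and of the ribosomal protein gene Rpl4. They also held Cmah, the hydroxylase that makes the sialic acid Neu5Gc (1614 to 19.3 CPM, 83.7-fold lower), and the mitochondrial mt-Co1 (4879 to 3291 CPM).

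The response was next set beside that of the cells labelled wild-type, in which 7239 of 23184 genes were past 2-fold higher (31.2%) and 6080 lower (26.2%), and past 8-fold 2513 higher (10.8%) and 2261 lower (9.75%). Of the 2342 genes past 8-fold higher under the Htt-null label, 1670 were also past 8-fold higher under the wild-type label, which is 71.3% of the former and 66.5% of the latter. For genes past 8-fold lower the shared number was 1626, or 70.4% and 71.9%. Only 40 genes were past 8-fold one way under the Htt-null label and past 2-fold the other way under the wild-type label. The 2 responses share no library, but both come from 1 experiment with 1 library each. The pluripotency list had a median of -8.27 under the Htt-null label against -5.90 under the wild-type label. Neuron genes were less far up (median 2.62 against 4.74, smaller in 15 of 16), and mesenchyme genes further up (5.26 against 2.77, larger in 20 of 20), while neural progenitor genes were alike in median (5.22 against 5.43). With the names of the RA-DIFF columns exchanged, these orders turned: the Htt-null against wild-type medians were 3.81 and 3.31 for neuron genes (larger in 14 of 16), 3.28 and 4.50 for mesenchyme genes (smaller in 19 of 20) and -5.78 and -8.09 for the pluripotency list.

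**Figure D4:**
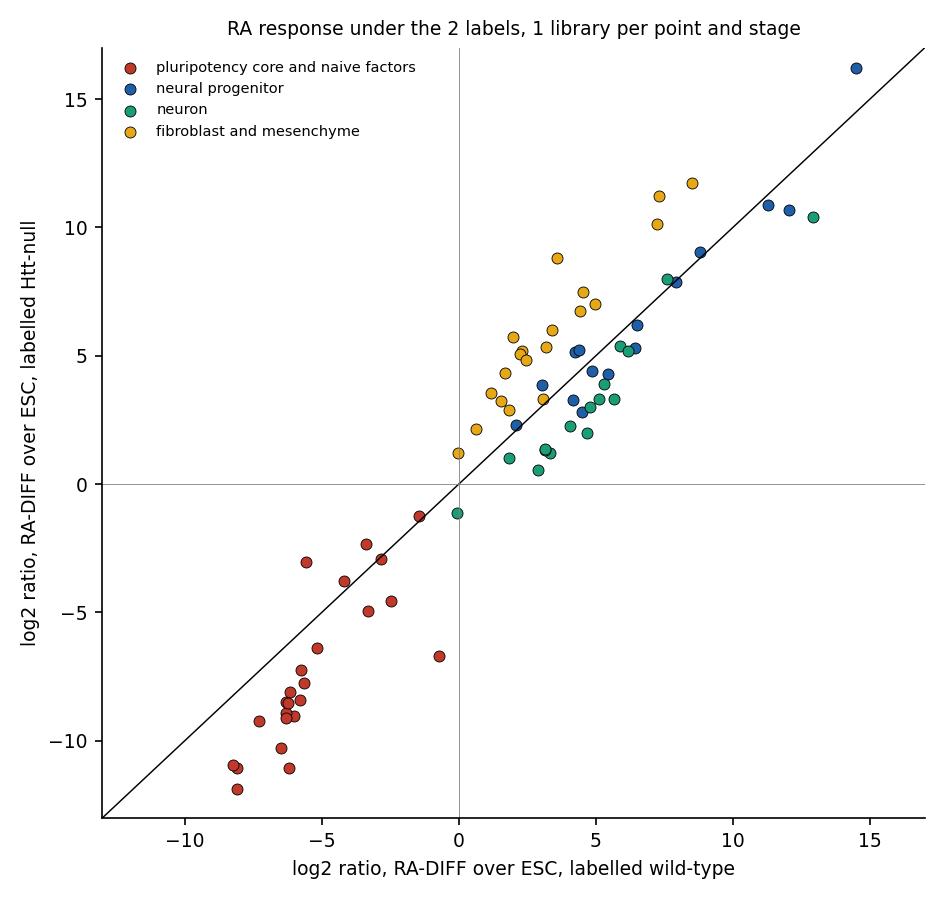
Log2 ratio of RA-DIFF over ESC under the wild-type label (x axis) and the Htt-null label (y axis) for the genes of 4 lists, with the diagonal of equal response. Mesenchyme genes (yellow) lie above the diagonal, most neuron genes (green) below it, and most pluripotency factors (red) below it at the far end, since they were lower under the Htt-null label.

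The difference of the 2 responses was taken over 23967 genes with at least 10 counts in a library. Past 2-fold, it was larger under the Htt-null label in 3338 (13.9%) and smaller in 4284 (17.9%), and with the RA-DIFF columns exchanged the counts were 3094 (12.9%) and 3933 (16.4%). Among genes with at least 500 counts, those with the largest difference included Six6, an eye and hypothalamus factor, at 4 and 1803 counts under the Htt-null label and 14 and 124 under the wild-type label, Acta2, and Col8a2, a collagen, with 182 and 3664 against 376 and 151. Those with the smallest difference included factors of the dorsal neural tube: Msx3 had 16 and 231 counts against 1 and 1812, Barhl2 11 and 1240 against 1 and 8030, and Rspo3, a Wnt agonist, 17 and 939 against 1 and 2768. All 3 were near 0 in wild-type ESC, at 1 count, so that their ratio under that label carries a wide counting error. With the RA-DIFF names exchanged, the difference changed sign for Six6 (log2 5.44 by the labels and -2.65 exchanged), Acta2 (5.22 and -2.69) and Col8a2 (5.42 and -4.15). It stayed negative for Msx3 (-1.63 exchanged), Barhl2 (-1.36) and Rspo3 (-3.13).

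Properties that the choice of genes did not use were then compared. By the median of their genes with at least 100 counts, autosomes lay between -0.084 (chromosome 11) and 0.514 under the Htt-null label, around a median of 0.202 over 15913 genes. Chromosome 8 stood at 0.0054 under the Htt-null label against 0.559 under the wild-type label, the highest autosome there. Its genes differed by a median of 0.362 between the 2 ESC libraries, Htt-null over wild-type, and by -0.215 between the 2 RA-DIFF libraries by the labels. On chromosome 11, with the next largest difference among autosomes in ESC (0.219), the RA-DIFF libraries differed by 0.019. The sign differed between the stages on chromosome 8 and not on chromosome 11. It also differed on most other autosomes, for example on chromosome 18, with -0.103 in ESC and 0.098 in RA-DIFF. Against the other RA-DIFF library the chromosome 8 median was 0.167.

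**Figure D5:**
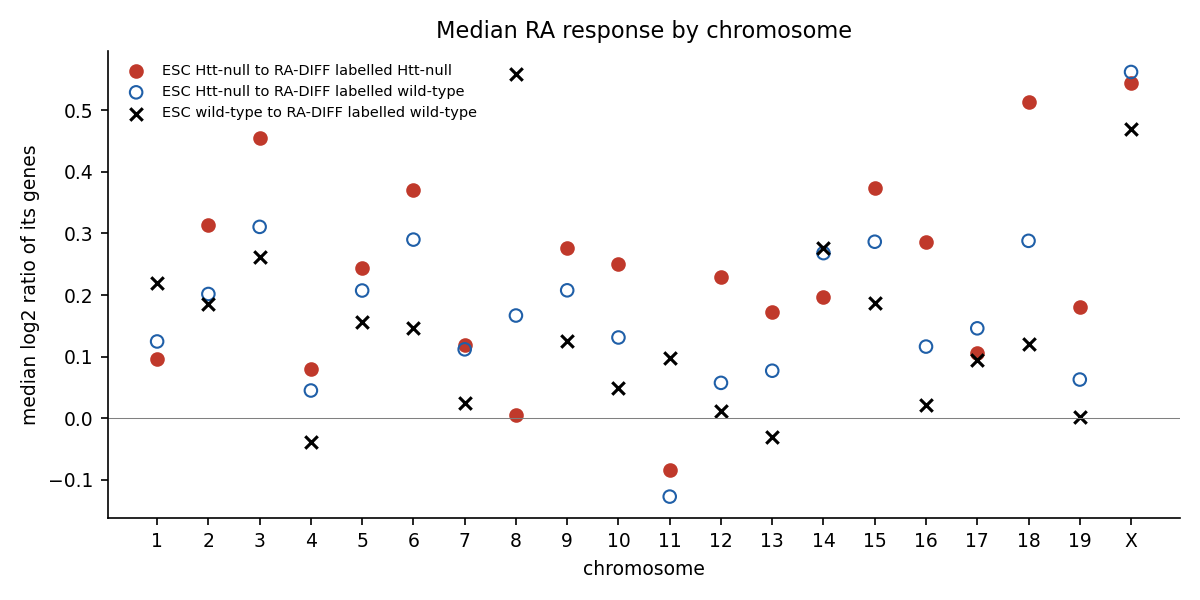
Median log2 ratio of the genes on each chromosome for ESC Htt-null to RA-DIFF labelled Htt-null (red), ESC Htt-null to the other RA-DIFF library (open blue) and ESC wild-type to RA-DIFF labelled wild-type (crosses), 1 library each. On chromosome 8 the red point is near 0 and the cross is at 0.559, and the blue circle lies nearer to its neighbours.

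Genes past 8-fold higher and lower also differed in structure. Among protein-coding genes the median span was 37.3 kb for those past 8-fold higher, 13 kb for those past 8-fold lower and 22.4 kb for those within 2-fold, and the median summed exon length was 4.78, 2.61 and 4.44 kb. Promoter CpG content, as the observed over expected ratio in the RefSeq promoters matched by symbol for 13586 of the genes kept, had a median of 0.565 for genes past 8-fold higher, 0.326 for genes past 8-fold lower and 0.783 for genes within 2-fold. The letters TATAAA were present in 12.5%, 12.8% and 6.17% of these promoters, against 8.32% of the 13586 matched to genes kept and 14.1% of all 27025. By gene type, 5047 of 16822 protein-coding genes were past 2-fold higher (30.0%) and 3938 lower (23.4%). Long intergenic RNAs were lower more often than higher (484 and 321 of 1148), and so were unprocessed pseudogenes (76 and 20 of 126). Pseudogenes and close paralogs share reads with their parent genes and are uncertain. The study's methods name no strand option for the counting and state default settings where nothing else is specified. Antisense genes may therefore hold reads of the genes they overlap, which was not tested.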

How the data were processed

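Total RNA was extracted, and poly-A-plus RNA was made into strand-specific libraries and sequenced as paired reads. Per the labels and the study's methods, the authors aligned the reads with TopHat2 2.0.14 to GRCm38.p4, counted them on GENCODE genes with HTSeq 0.6.1 and deposited the raw counts for 32567 genes, without normalization or pooling. The small RNA table was not used.

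TMM factors were computed over the 4 RNA-seq libraries with edgeR 4.0.16 in R 4.3.3, and log2 ratios of scaled CPM with Python 3.11.15. Genes needed 10 counts in either library, a count of 0 was set to 3, and called means past 2-fold or 8-fold. Intervals are exact binomial at 95%. With 1 library a side the quasi-likelihood test could not be fitted. The ratio step was tested on simulated data. Genes are named when they are Htt, on 1 of 40 lists, among the 12 largest or smallest ratios (at least 500 counts), the 10 largest gains or losses of CPM, or the 8 largest or smallest differences of response, and gene models named Gm or Rik only by number. Some genes that this rule names are left out of the text, and Rmrp, Rpph1, Rn7sk and Terc are named outside it. The members and lists were chosen with earlier results of these data known. The alternatives were library size alone, TMM over the 2 libraries, DESeq2 1.42.0 size factors, limits of 1 and 100 counts, a prior count of 2, the study's calling rule, the other RA-DIFF library, and exchanged RA-DIFF labels. Promoters and lengths came from RefSeq GRCm38.p6 and GENCODE vM21.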

Additional observations from a re-analysis of the deposited data

Results flagged for a closer look

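For 10 named genes the single library pair labelled Htt-null and the single pair labelled wild-type moved past 2-fold in opposite directions. The difference between the labels was not tested, since each has 1 library a stage. It rests on the RA-DIFF labels: with these exchanged, the difference changed sign in every one of the genes but mt-Nd3, for example from 5.42 to -4.15 (log2) in Col8a2 and from -5.49 to 4.13 in Dmbx1. Higher under the Htt-null label and lower under the wild-type label were Col8a2, a collagen (log2 3.74 and -1.69), Inhba, an activin subunit (2.37 and -2.17), Tgfbi, a matrix protein that TGF-beta induces (1.5 and -1.12), Hoxd8 (1.31 and -1.62) and the ligand Bmp4 (1.11 and -2.24). Lower under the Htt-null label and higher under the wild-type label were Phox2a, a factor of visceral motor neurons (-3.07 and 1.31), Tlx3, of dorsal sensory neurons (-2.2 and 1.91), Dmbx1, a midbrain homeobox gene (-2.18 and 3.31), Pou4f1, a sensory neuron factor (-1.23 and 2.03), and the mitochondrial mt-Nd3 (-1.13 and 1.73).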

How the results depend on the processing

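The counts of genes past 2-fold and 8-fold moved most with the limit on counts and with the calling rule. Both also change how many genes are counted, which was 22666 in the main setting. At 100 counts 3267 of 15913 genes were past 2-fold lower and 1205 past 8-fold lower. At 1 count 9534 of 30740 were past 2-fold lower. By the study's rule, over 15492 genes, 3725 were higher and 2466 lower at an assumed dispersion of 0.1, and 5322 and 3849 at 0.01. At 100 counts the difference of the responses was larger under the Htt-null label in 1834 of 16686 genes and smaller in 1835. The median of all genes shifted by -0.072 with library size alone, 0.105 with the limit of 100 counts and -0.19 with that of 1 count.

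Of 468 named genes past 2-fold, 443 kept their direction with the other RA-DIFF library and 411 stayed past 2-fold in it. The log2 ratio changed sign in Bmp4 (-1.26), Cdx1 (0.0268), Cer1 (-0.78), Col8a2 (-1.05), Dmbx1 (2.63), Emx1 (0.68), Eomes (0.0934), Foxc2 (-0.34), Hoxd8 (-1.16), Hoxd9 (-2.2), Inhba (-1.67), Isl2 (0.70), Lor (-0.16), Pax1 (-0.0436), Phf19 (-0.0422), Phox2a (1.13), Pou3f1 (1.38), Pou4f1 (1.92), Slit3 (-0.11), Tbx20 (-0.0887), Tbx5 (0.27), Tgfbi (-1.02), Thy1 (-0.31), Tlx3 (1.43) and mt-Nd3 (0.13). The cause was not tested. At these depths, ratios of genes near 10 counts carry the widest counting error, and the spread between cultures is unknown. No paired analysis was possible because each condition has 1 library.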

Other observations

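Genes that give the sex chromosomes of the line were read in both libraries. Of 5 genes, Xist and 4 on the Y chromosome, 0 were past 2-fold higher in RA-DIFF and 3 lower. Ddx3y, an RNA helicase gene on the Y chromosome, had 4466 counts in ESC and 4440 in RA-DIFF labelled Htt-null, and Uty, a histone demethylase homolog, 2503 and 1886. The other RA-DIFF library also held both, with 1630 and 1000 counts. After scaling, the log2 ratio of Ddx3y was -0.60, and -2.23 with the other RA-DIFF library. Xist, the RNA that silences an X chromosome, had 458 and 26 counts.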
